A study of Mus musculus with 12 samples.

Results

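The 47 activity-induced genes examined here are immediate early and early response genes of neurons, among them *Fos*, *Arc*, *Egr1*, *Npas4* and *Nr4a1*. They were chosen by symbol, and each of the 47 symbols matched 1 of the 37991 Ensembl genes counted. Expression was measured by poly(A) RNA-seq in hippocampi of C57BL/6N mice, 6 labelled *Gadd45a*-WT and 6 labelled *Gadd45a*-KO, all of which had undergone the passive avoidance test (PA), in which a mouse learns to stay out of a dark compartment where it received a foot shock. Hippocampi were taken 1 h after PA. The mice came from a cross of heterozygous parents, with the WT animals being siblings, and the labels give an age of 6 to 7 months. In the *Gadd45a*-KO line a neomycin cassette under a PGK promoter takes the place of the first exons while the last exon remains, so that the deletion is not limited to neurons or to the adult. No mouse without PA is part of these counts. The rise of the genes after PA could therefore not be measured, and every comparison is between the 2 labels after PA or between single mice of 1 label.

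Neurons switch on these genes when synaptic activity lets calcium into the cell. Calcium and the ERK kinases activate transcription factors that are already present, chiefly CREB, SRF with its ternary complex partners, and MEF2, and the first transcripts appear within minutes without new protein synthesis. Many of the products are transcription factors themselves, whereas others act at synapses, are secreted, or switch the inducing signal off again. In the hippocampus such genes are widely used to mark the neurons that took part in learning.

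CREB binds the palindrome TGACGTCA, called the cAMP response element, and a shorter form, TGACG. To show this shared feature, promoter windows from 250 bases before to 50 bases after the transcription start were taken from a table of RefSeq windows (GRCm38.p6, a later build than that of the counts), in which 36 of the 47 genes matched. *Egr1*, *Egr3*, *Arc*, *Ier2*, *Dusp4*, *Klf10*, *Sik1*, *Nptx2*, *Trib1*, *Vgf* and *Crem* were not searched. The palindrome was present in 8 of the 36 genes (22.2%), against 2.03% of 27025 genes with a window, and the shorter form on either strand in 29 (80.6%), against 23%. Each palindrome also counts as a match to the shorter form. The 8 palindromes are shown in capitals with the 8 bases on each side, 5′ to 3′ on the strand of the gene.
*Scg2* (chr1:79440079-79440102, minus strand): tgagccggTGACGTCAgcgtggaa
*Btg2* (chr1:134079306-134079329, minus strand): cccaataaTGACGTCAgtgagcga
*Arl5b* (chr2:15055191-15055214, plus strand): gcgcccgcTGACGTCAgcgcgccg
*Arl4d* (chr11:101665507-101665530, plus strand): gcgtcgtgTGACGTCAcgagaggg
*Pcsk1* (chr13:75089771-75089794, plus strand): ggtagatcTGACGTCAagagatgg
*Plk2* (chr13:110394974-110394997, plus strand): gctcgccgTGACGTCAcgaggccc
*Maff* (chr15:79347483-79347506, plus strand): tggggcggTGACGTCActgcatga
*Dusp1* (chr17:26508600-26508623, minus strand): agggcgggTGACGTCAccgcccgg

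The best studied members with a window but without the palindrome held only the shorter form. The match nearest to the start is in capitals, written CGTCA where it lies on the other strand.
*Fos* (chr12:85473816-85473836, plus strand): ccgcccagTGACGtaggaagt
*Fosb* (chr7:19310093-19310113, minus strand): gttgcgggTGACGcaagcgcg
*Egr2* (chr10:67537806-67537826, plus strand): ggcagcgaCGTCAcgggtatt
*Egr4* (chr6:85513686-85513706, minus strand): gtcatttaCGTCAcggcgcca
*Nr4a1* (chr15:101266798-101266818, plus strand): tctccatgCGTCAcggagcgc
*Npas4* (chr19:4990128-4990148, minus strand): tcacgggaTGACGtcggaagt
*Homer1* (chr13:93303735-93303755, plus strand): gagcgcgcTGACGttgctatt

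Of the other motifs searched, the binding letters of EGR factors (GCGGGGGCG or GCGTGGGCG) were present in 6 of the 36 genes, *Arl5b*, *Fosb*, *Fosl2*, *Klf4*, *Maff* and *Nr4a1* (16.7%, against 3.93% of all genes). The MEF2 box was found in *Atf3*, *Jun* and *Per1* (8.33% against 0.636%), the CArG box of SRF in *Dusp5* and *Egr2* (5.56% against 1.81%), and the AP-1 site (TGACTCA or TGAGTCA) in *Csrnp1* and *Gpr3* (5.56% against 5.95%). These matches describe letters in a window and do not show that a factor was bound.

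Between 44594261 and 55540601 reads per library fell on genes, and the members had from 15 to 16568 reads each. The targeted gene itself did not follow the labels. *Gadd45a* had 2.19 to 3.43 CPM (counts scaled to the TMM-corrected total of the library) in the 6 WT-labelled libraries and 20.5 to 23.1 CPM in the 6 KO-labelled ones (log2 fold change 3.06, standard error, SE, 0.09, adjusted p = 1.33e-10 by the quasi-likelihood test of edgeR, after Benjamini and Hochberg). Counts per gene do not separate the deleted from the remaining exons, and libraries are therefore named by label. Every direction given here is between labels and would turn if the labels were exchanged, which these counts do not settle. Hippocampal identity was checked with marker sums, which reached 1303 to 1777 CPM for 10 pyramidal cell markers and 494 to 975 CPM for 8 dentate granule cell markers. Libraries 2 and 3 labelled KO stood apart by 10 markers of the neighbouring thalamus, which summed to 351 and 530 CPM there and to between 95 and 146 CPM in the other 10 libraries, with *Shox2* at 0 reads in all. In KO-labelled library 3, oligodendrocyte markers summed to 7311 CPM, against 2317 to 3738 CPM in the others. All 6 oligodendrocyte markers were higher over the KO-labelled libraries at an unadjusted edgeR p under 0.05 (log2 fold change 0.39 to 0.49). So were 7 of 8 thalamic markers tested, and 0 of either list passed 1% FDR. The oligodendrocyte and thalamic sums overlapped between labels (exact permutation p = 0.0649 and 0.152). The share of reads that fell in no gene was 14.4 to 15.8% in WT-labelled and 13 to 14.3% in KO-labelled libraries, with no overlap (exact permutation p = 0.00216, two-sided, which is the smallest that 6 against 6 allow). The part of these differences in the results that follow was not tested, but counts are also given without KO-labelled libraries 2 and 3. In whole tissue, fewer cells of a type and less RNA per cell cannot be told apart.

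All 47 genes passed the expression filter and were compared between the labels in a fit across 16399 genes. At 1% FDR, 1 of the 47 was lower in the KO-labelled libraries, *Arl5b*, where 2.62% of all tested genes were lower. None of the 47 was higher, where 0.0244% of all genes were higher. DESeq2 gave the same counts, 1 lower and 0 higher, although it called more of all genes, 662 lower and 19 higher, against 430 and 4 in edgeR. At an unadjusted p under 0.05, 6 members were lower (12.8%, against 9.35% of all genes) and 1, *Klf4*, was higher (2.13%, against 4.34%). In no member did the KO-labelled values all lie below the WT-labelled ones, as in 3.12% of all genes, or all above them, as in 0.183%. Shares this close to the background say nothing particular about these genes.

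The fitted differences were small and more often negative than positive. The log2 fold change of KO-labelled over WT-labelled libraries was below 0 in 33 of 47 members (70.2%), against 48.2% of all tested genes, and its median was -0.06 against 0.00. It lay between -0.52 in *Egr2* and 0.30 in *Klf4*, and in 38 members it was within 0.2 of 0. The 95% confidence interval stayed within 0.5 of 0 for 39 members and within 1 for 46. The lean to negative values was smaller without KO-labelled libraries 2 and 3. Then 27 of 47 members were below 0 (57.4%, against 47.3% of all genes), and the median was -0.01. At 1% FDR 0 members were lower or higher in that fit, where 199 of 16559 genes were lower and 3 higher. In all 12 libraries, neuronal markers leaned the same way, with 8 of 8 dentate granule, 7 of 8 interneuron and 6 of 9 pyramidal genes below 0. Blood markers did too (5 of 5). Of oligodendrocyte, astrocyte, microglia, endothelial and mural, and thalamic markers 0 were below 0, and of choroid plexus markers 1 of 5. The part of tissue composition in the lean was not tested.

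**Figure D1:**
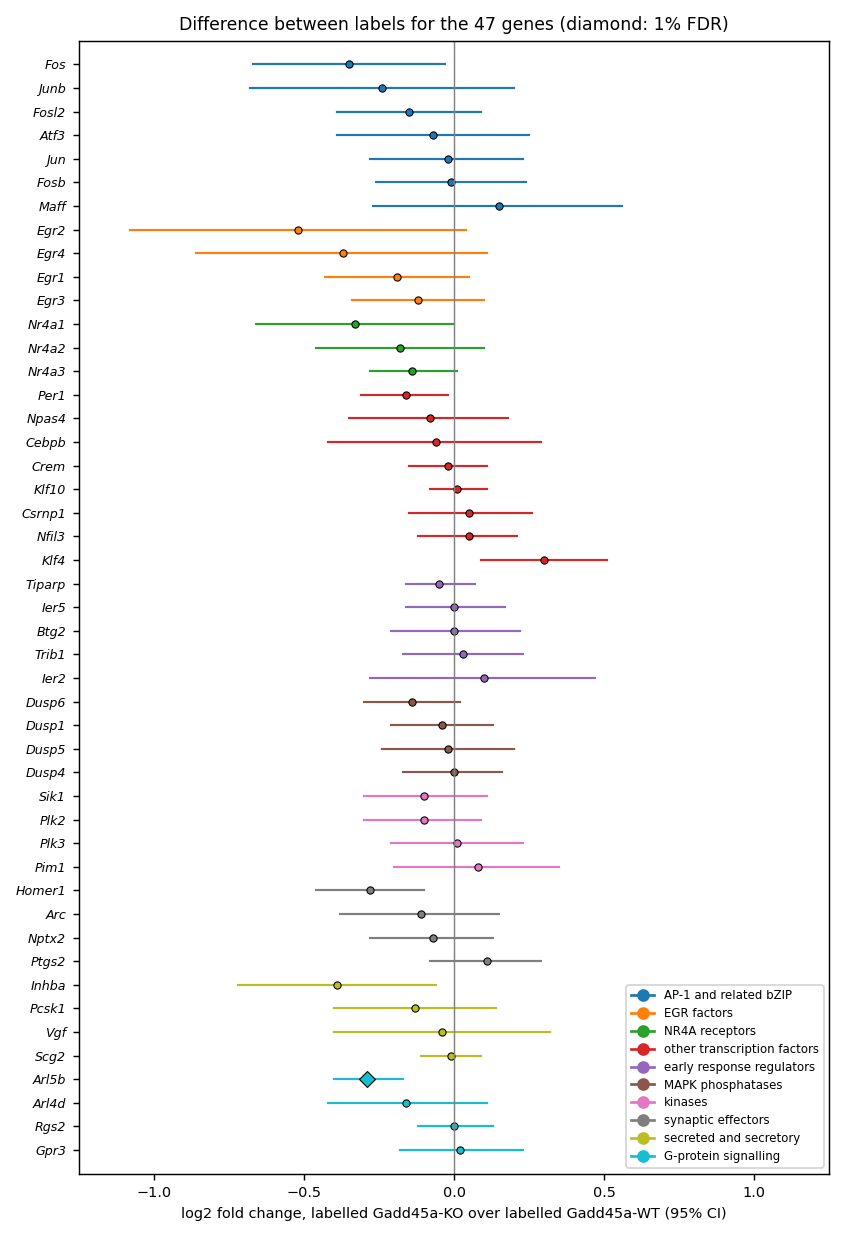
Log2 fold change of each of the 47 genes, KO-labelled over WT-labelled libraries (6 each), with the 95% confidence interval as a line and colours for the gene's role. *Arl5b*, drawn as a diamond, is the only one that passed 1% FDR, and the points lie between -0.52 and 0.30.

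*Arl5b* (ENSMUSG00000017418, NCBIM37 chromosome 2, 14971022 to 15004083, plus strand) encodes a small ARF-like GTPase of the trans-Golgi network that acts in membrane traffic. It had 28.8, 35, 35.4, 30.9, 32.9 and 34.8 CPM in WT-labelled replicates 1 to 6. In KO-labelled replicates 1 to 6 it had 27.1, 25.5, 27.8, 25.8, 29.2 and 26.7 CPM. Only WT-labelled library 1 and KO-labelled library 5 crossed over, and all 6 KO-labelled values lay below the WT-labelled mean. The mean was 33 ± 2.63 CPM (SD, n = 6) against 27 ± 1.37 CPM, a log2 fold change of -0.29 (SE 0.05, edgeR adjusted p = 0.00452). The call lay near its threshold. It was lost without any one of WT-labelled libraries 2, 3, 5 and 6 or KO-labelled libraries 1, 2, 4 and 6, with an adjusted p between 0.0151 and 0.0175 and a log2 fold change between -0.28 and -0.26, and without KO-labelled libraries 2 and 3 together (-0.28, adjusted p = 0.0265). The exons of *Arl5b* span 7230 nt, the second longest of the 47, where the median was 2802 nt for the members, 3498 nt for all tested genes and 7873 nt for the genes lower at 1% FDR. With an offset for exon length the log2 fold change was -0.25 (adjusted p = 0.00573). The part of length in the difference was not tested further.

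The 250 bases before the start of *Arl5b* are shown because it is the member that differed (GRCm38.p6, chr2:15055070-15055319, plus strand), with the palindrome, another match to its shorter form and an EGR match in capitals, in this order.
*Arl5b*: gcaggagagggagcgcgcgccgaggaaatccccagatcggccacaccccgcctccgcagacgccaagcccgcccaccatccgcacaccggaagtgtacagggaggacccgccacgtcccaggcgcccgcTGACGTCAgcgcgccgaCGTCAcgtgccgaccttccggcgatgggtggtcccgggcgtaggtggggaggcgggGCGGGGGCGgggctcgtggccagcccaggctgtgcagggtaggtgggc

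Among the 7 AP-1 and related bZIP genes, whose proteins pair to form the AP-1 transcription factor or its partners, none passed 1% FDR. Their log2 fold changes ran from -0.35 to 0.15 with a median of -0.07. *Fos*, the most used marker of recently active neurons, had 4.99, 6.41, 4.1, 4.85, 3.92 and 7.73 CPM in WT-labelled replicates 1 to 6. In KO-labelled replicates 1 to 6 it had 3.83, 4.66, 4.41, 3.76, 3.79 and 4.6 CPM. The WT-labelled libraries were spread 1.97-fold, with libraries 6 and 2 highest, while the KO-labelled ones lay at or below the lower part of that range, libraries 1, 4 and 5 under the lowest WT-labelled value. The difference (log2 fold change -0.35, 95% confidence interval -0.67 to -0.03) had an adjusted p of 0.307 and a two-sided exact permutation p of 0.0866. Without WT-labelled library 3 or 5, the lowest of that label, the exact permutation p of *Fos* was 0.0325 or 0.0281, and with any other library left out it was above 0.05. Without WT-labelled library 6, the highest, the log2 fold change of *Fos* was -0.21 (adjusted p = 0.554).

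*Fosb*, whose truncated product builds up under repeated activity, had 5.92, 6.12, 5.73, 5.77, 6.16 and 7.45 CPM in the WT-labelled replicates and 6.08, 4.99, 4.99, 8.27, 5.87 and 6.67 CPM in the KO-labelled ones. Its means were 6.19 ± 0.642 and 6.15 ± 1.23 CPM (SD, n = 6), with the highest and the lowest value both among the KO-labelled libraries. *Junb*, an AP-1 partner that tempers the action of *Jun*, had 28.4, 16.9, 17.7, 18.6, 12.9 and 18.6 CPM in the WT-labelled and 14.7, 9.98, 13.1, 23.4, 13 and 21 CPM in the KO-labelled replicates. WT-labelled library 1 was far above the rest, and the groups overlapped over most of their range (log2 fold change -0.24, adjusted p = 0.701, or -0.08 without that library). *Maff*, a small MAF factor, was the lowest member of all, with 0.594, 0.467, 0.459, 0.433, 0.589 and 0.3 CPM against 0.667, 0.571, 0.559, 0.576, 0.412 and 0.361 CPM (log2 fold change 0.15, adjusted p = 0.838). *Fosl2*, *Jun* and *Atf3* had log2 fold changes of -0.15, -0.02 and -0.07.

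All 4 EGR genes, zinc finger factors that carry the early response to later target genes, had negative log2 fold changes, with a median of -0.28, but none passed the test. *Egr1* (also zif268) had 100, 106, 109, 122, 87.9 and 114 CPM in the WT-labelled replicates and 94.5, 74.1, 90.1, 110, 74 and 118 CPM in the KO-labelled ones. KO-labelled libraries 2 and 5 were lowest, whereas libraries 4 and 6 reached the upper WT-labelled values (log2 fold change -0.19, adjusted p = 0.523). *Egr4* had 11.7, 7.88, 6.06, 6.29, 5.21 and 6.83 CPM against 5.22, 3.63, 4.67, 9.24, 4.38 and 6.76 CPM, and its highest value came from WT-labelled library 1 (log2 fold change -0.37, adjusted p = 0.536). The exact permutation p of *Egr4* was 0.16, and 0.0281 without KO-labelled library 4, whereas without WT-labelled library 1 the log2 fold change was -0.18 (adjusted p = 0.773). *Egr2* had the most negative estimate of all members and the widest interval, -0.52 (95% confidence interval -1.08 to 0.04, adjusted p = 0.419). It had 0.858, 1.78, 1.65, 1.66, 1.92 and 3.32 CPM against 1.06, 0.989, 0.983, 1.77, 1.21 and 1.79 CPM, so that WT-labelled libraries held both the lowest and the highest value. The exact permutation p of *Egr2* was 0.165, and 0.0325 without WT-labelled library 1, whereas without WT-labelled library 6 the log2 fold change was -0.27 (adjusted p = 0.721), less negative than that of *Egr4* or *Inhba*. *Egr3* had a log2 fold change of -0.12. Without KO-labelled libraries 2 and 3 the 4 estimates were -0.10 for *Egr1*, -0.36 for *Egr2*, -0.02 for *Egr3* and -0.19 for *Egr4*.

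The 3 NR4A genes encode orphan nuclear receptors that act without a known natural ligand, and *Nr4a1* to *Nr4a3* have been tied to memory formation. *Nr4a1* had 41.5, 40.9, 52.2, 66.4, 37.6 and 52.8 CPM in the WT-labelled replicates and 38.5, 27.9, 36, 48.3, 32.2 and 48.3 CPM in the KO-labelled ones. All 6 KO-labelled values lay below the WT-labelled mean of 48.6 CPM, but only KO-labelled libraries 2, 3 and 5 fell below the lowest WT-labelled one. The log2 fold change of -0.33 (SE 0.15) had an adjusted p of 0.357 and an exact permutation p of 0.106, and it was -0.22 without WT-labelled library 4. *Nr4a2* and *Nr4a3* had log2 fold changes of -0.18 and -0.14, with adjusted p = 0.636 and 0.421.

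Of the 4 genes whose products act at synapses none passed. *Arc* encodes a cytoskeletal protein that drives AMPA receptors into endosomes, and its mRNA is carried to active dendrites. It had 91.8, 77.2, 81.8, 99.2, 83.7 and 102 CPM against 85, 57, 73, 93.2, 76.7 and 110 CPM in KO-labelled replicates 1 to 6, with the lowest and the highest value both in KO-labelled libraries (log2 fold change -0.11, 95% confidence interval -0.38 to 0.15). *Homer1*, which links metabotropic glutamate receptors to the postsynaptic density and yields a short inducible form that breaks these links, had 108, 131, 123, 111, 142 and 139 CPM against 104, 94.7, 90.3, 127, 98.9 and 105 CPM. KO-labelled library 4 was the only one of its label within the WT-labelled range. The log2 fold change was -0.28 (SE 0.08), with an adjusted p of 0.0864 in edgeR and 0.0352 in DESeq2. It was -0.34 without KO-labelled library 4 (edgeR adjusted p = 0.0148) and -0.18 with the offset for exon length (edgeR adjusted p = 0.309). Over the 20 alternatives the adjusted p ran from 0.0148 to 0.415, so that none passed 1% FDR. Counts per gene do not separate the short from the long form. *Ptgs2*, the inducible cyclooxygenase, had 37, 42.2, 45.4, 32.7, 36.9 and 32 CPM against 36.6, 43.6, 45.7, 35.4, 40.5 and 41.9 CPM (log2 fold change 0.11, adjusted p = 0.688). *Nptx2*, a secreted protein that clusters AMPA receptors, had a log2 fold change of -0.07.

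The 8 further transcription factors had a median log2 fold change of -0.00. *Npas4*, which is induced by calcium alone and adjusts the inhibitory synapses of active neurons, had 8.8, 8.37, 9.94, 9.52, 11.1 and 9.65 CPM in the WT-labelled replicates and 9.51, 7.08, 9.12, 11.7, 6.56 and 10.1 CPM in the KO-labelled ones. KO-labelled libraries 2 and 5 were below all WT-labelled values, while library 4 was above them (log2 fold change -0.08, adjusted p = 0.859). *Per1*, a clock gene with CREB sites, had 80.7, 77.1, 82, 94, 67 and 81.1 CPM against 73.5, 64.9, 77.5, 73.4, 66.5 and 75.4 CPM. All KO-labelled values lay below the WT-labelled mean of 80.3 CPM, with a log2 fold change of -0.16 (edgeR adjusted p = 0.297).

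*Klf4*, a Krüppel-like factor that is also active in endothelial cells, had the highest estimate of the 47. It had 4.11, 3.96, 3.25, 4.15, 3.69 and 4.54 CPM in the WT-labelled and 4.18, 4.66, 5.09, 5.99, 4.72 and 4.56 CPM in the KO-labelled replicates. All 6 KO-labelled values lay above the WT-labelled mean of 3.95 CPM, and the groups met only through WT-labelled library 6 and KO-labelled library 1. The log2 fold change of 0.30 (SE 0.10) did not pass, with an adjusted p of 0.122 in edgeR and 0.0539 in DESeq2. The sum of 7 endothelial and mural cell markers was 230 to 289 CPM in WT-labelled and 264 to 296 CPM in KO-labelled libraries (exact permutation p = 0.0368), and its part in the difference of *Klf4* was not tested. *Cebpb*, *Crem*, *Csrnp1*, *Klf10* and *Nfil3* had log2 fold changes between -0.06 and 0.05.

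Genes that end or shape the response lay close to 0. The 5 early response regulators had a median log2 fold change of 0.00 and a range of -0.05 to 0.10. *Btg2*, which slows the cell cycle, had 16.2, 15.8, 13.3, 15.1, 14.7 and 17.4 CPM against 17.9, 16.4, 14, 11.1, 16.1 and 17.3 CPM, with KO-labelled library 4 lowest (log2 fold change 0.00, 95% confidence interval -0.21 to 0.22). The 4 MAPK phosphatases, which remove the activating phosphates from ERK and related kinases, had a median of -0.03. *Dusp1* had 8.23, 7.23, 7.77, 9.47, 7.21 and 8.87 CPM against 6.81, 7.52, 8.58, 7.88, 8.14 and 8.38 CPM (log2 fold change -0.04, 95% confidence interval -0.21 to 0.13). *Dusp6*, which acts on ERK in the cytoplasm, was within 56.1 to 61 CPM in all WT-labelled libraries, but KO-labelled libraries split into 3 at 45 to 46.3 CPM (2, 3 and 5) and 3 at 55.3 to 60.7 CPM (1, 4 and 6). Its log2 fold change was -0.14 (adjusted p = 0.442). The 4 kinases, *Plk2*, *Plk3*, *Pim1* and *Sik1*, lay between -0.10 and 0.08.

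Of the 4 genes for secreted proteins or their processing, *Inhba* encodes the subunit of activin A. It had 1.63, 2.83, 3.12, 2.2, 2.53 and 3.04 CPM against 1.98, 1.76, 1.52, 1.87, 2.25 and 2.34 CPM, and WT-labelled library 1 lay among the low KO-labelled values (log2 fold change -0.39, SE 0.15, edgeR adjusted p = 0.247). *Vgf*, a neuropeptide precursor, had 112, 79.1, 83.2, 78.8, 59.1 and 57.9 CPM against 71.1, 57.3, 84, 109, 66 and 68.8 CPM, almost the same spread in both labels (log2 fold change -0.04, adjusted p = 0.955). *Scg2*, which encodes secretogranin II, differed little between libraries, with 184 to 222 CPM in the WT-labelled and 189 to 222 CPM in the KO-labelled ones. *Pcsk1*, the convertase that cuts such precursors, had a log2 fold change of -0.13. Besides *Arl5b*, the G-protein signalling genes *Arl4d*, *Rgs2* and *Gpr3* had -0.16, 0.00 and 0.02.

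**Figure D2:**
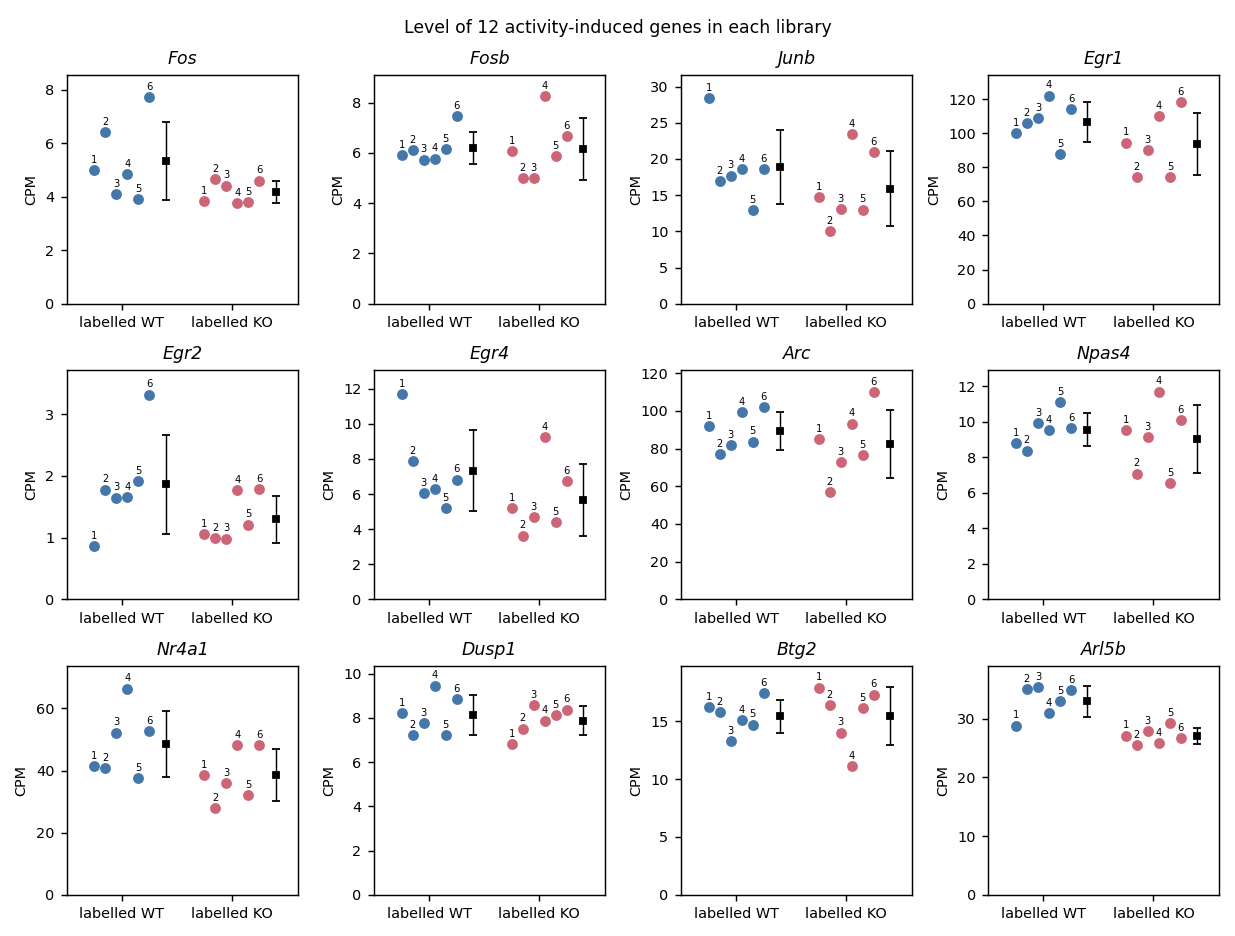
CPM of 12 of the genes in each library, with the replicate number above each point and the mean ± SD of 6 libraries as a black square with bars, on axes that start at 0. KO-labelled libraries 4 and 6 lie high and library 2 low for *Junb*, *Egr4*, *Arc* and *Nr4a1*, and the labels overlap in every panel.

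Per kb of exon the members covered a wide range. *Plk2*, a kinase that weakens overactive synapses, was highest with a mean of 98.4 CPM per kb in WT-labelled libraries, followed by *Scg2* at 81.9 CPM per kb, *Egr1* at 34.3, *Vgf* at 30.7 and *Arc* at 29.2. *Fos* stood at 2.27 and *Npas4* at 2.92 CPM per kb, below most of the list, and *Egr2*, *Atf3* and *Maff* closed it with 0.549, 0.481 and 0.224 CPM per kb. *Vgf* and *Arc*, neighbours in this order, did not differ beyond their spread, since *Vgf* alone varied 1.93-fold between WT-labelled libraries.

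**Figure D3:**
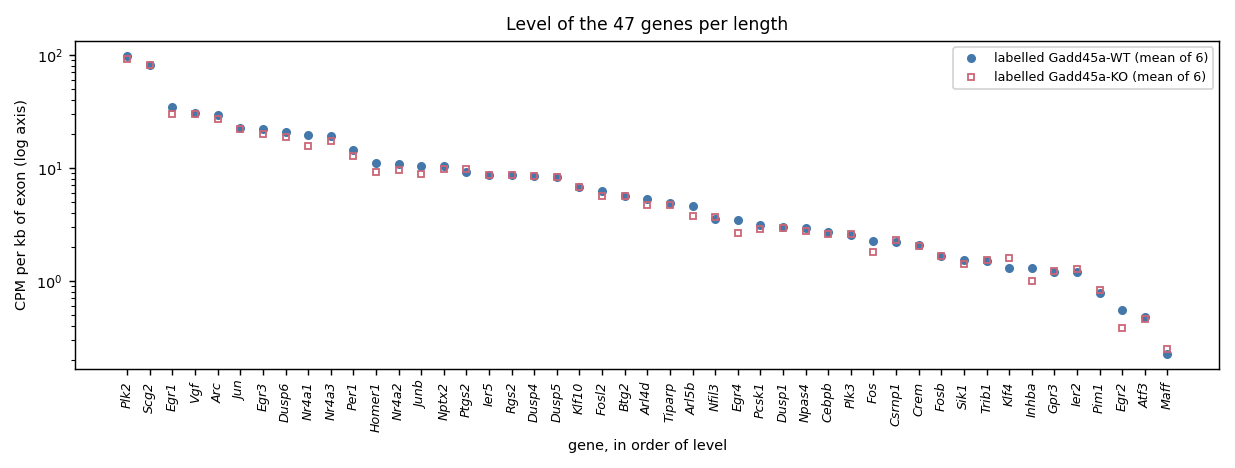
Mean CPM per kb of exon (log axis) of the 47 genes, in order of the WT-labelled mean, for 6 WT-labelled (filled circles) and 6 KO-labelled libraries (open squares). Levels run from 98.4 for *Plk2* to 0.224 for *Maff*, and both labels lie close together in every gene.

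Single mice of 1 label differed from each other. The median SD of log2 CPM within a label was 0.18 for the members in WT-labelled and 0.20 in KO-labelled libraries, against 0.11 over all tested genes in each. The SD was larger in the KO-labelled libraries for 23 of 47 members (48.9%, against 53.4% of all genes). KO-labelled library 2 had the lowest value of all 12 libraries in 15 members, where 8.95% of all genes had theirs, and KO-labelled library 3 in 9, where 12.7% had theirs. WT-labelled libraries 6 and 1 had the highest value in 10 and 9 members, where 11.3% and 10.4% of all genes had theirs.

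Over the 11 best known members, *Fos*, *Fosb*, *Junb*, *Egr1*, *Egr2*, *Egr4*, *Arc*, *Npas4*, *Nr4a1*, *Dusp1* and *Btg2*, the median deviation from the label's own median was -0.32 on the log2 scale in KO-labelled library 2, 0.36 in library 4 and 0.33 in library 6. All 11 were above the label's median in KO-labelled library 6 and in WT-labelled library 6, whose median deviation was 0.15. Marker sums went with these positions in some libraries and not in others. KO-labelled library 2 had the second highest thalamic sum, and KO-labelled library 4 had the lowest dentate sum (494 CPM) and the highest pyramidal sum (1777 CPM), while library 6 lay within the range of the others for both (823 and 1487 CPM). KO-labelled library 3, with the highest thalamic sum (530 CPM), had a median deviation of -0.13, as had KO-labelled library 5 with 129 CPM. WT-labelled library 5 had -0.17 with the lowest thalamic sum (95 CPM). The part of tissue composition in the positions was not tested.

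WT-labelled library 1 was the highest of its label for 10 members, among them *Jun*, *Junb*, *Egr4* and *Vgf*, and the lowest for 9, among them *Egr2*, *Homer1*, *Inhba* and *Arl5b*. Over all genes, 19% were highest and 20.4% lowest of the label in this library, shares close to those of the members.

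**Figure D4:**
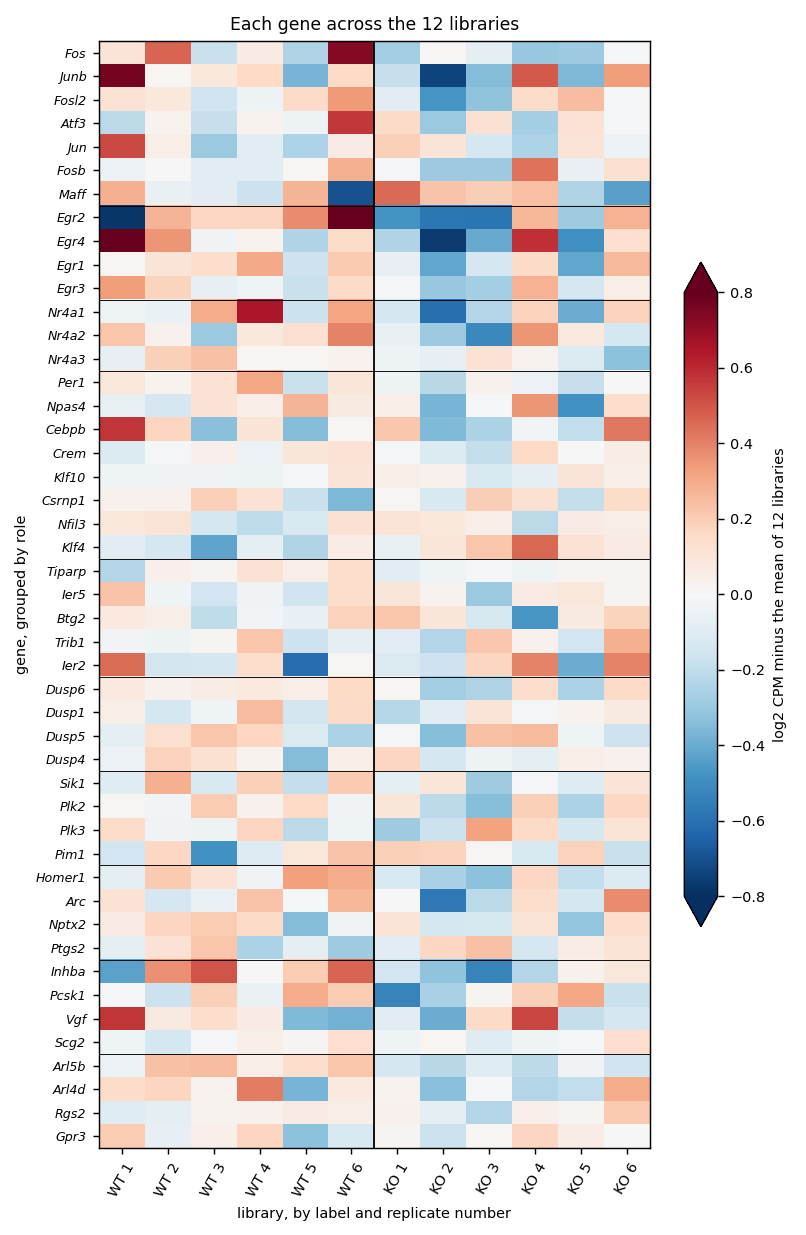
Log2 CPM of each of the 47 genes in each of the 12 libraries, minus the gene's mean over the 12 (red above, blue below, colours end at 0.8), with genes grouped by role. The column of KO-labelled library 2 is mostly blue. WT-labelled library 1 has both red (*Egr4*, *Junb*) and blue (*Egr2*) fields, and *Egr2* is strongly red in WT-labelled library 6.

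Within a label the members varied together only weakly as a whole. The mean Pearson's r over their 1081 pairs was 0.08 across the 6 WT-labelled and 0.14 across the 6 KO-labelled libraries, against 0.00 over all pairs of tested genes. For the 11 best known members it was 0.22 and 0.37. These values are descriptions without a test, and all pairs of a label share the same 6 libraries. Without KO-labelled libraries 2 and 3 the mean over all pairs was 0.08 and that of the 11 was 0.46 (4 libraries). A value of r over 0.8 was reached by 76 pairs (7.03%) across WT-labelled libraries, against 3.85% of all gene pairs, and by 97 (8.97%) across KO-labelled ones, against 3.56%. In both labels at once it was reached by 11 pairs (1.02%, against 0.282% of all gene pairs).

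The 4 EGR genes varied together among the KO-labelled mice, with a mean r of 0.85 and no pair under 0.77, and 0.81 without libraries 2 and 3. This was the highest mean r of the groups by role, the others lying between -0.23 and 0.18 in KO-labelled libraries, so it is a description. Across the WT-labelled libraries the mean r of the EGR genes was 0.07, but it was 0.45 without library 1, in which *Egr4* was highest and *Egr2* lowest. Whether the labels differ in this was not tested. Among the pairs that were alike in both labels, *Egr3* and *Egr4* had r = 0.94 in WT-labelled and 0.95 in KO-labelled libraries, *Egr1* and *Nr4a1* had 0.91 and 0.97, *Junb* and *Egr4* had 0.90 and 0.98, and *Homer1* and *Crem*, the gene of a CREB-like repressor, had 0.90 and 0.94. *Per1* and *Trib1*, a pseudokinase gene, had 0.93 and 0.88. These pairs were picked as the most alike of 1081, so their values are descriptions.

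**Figure D5:**
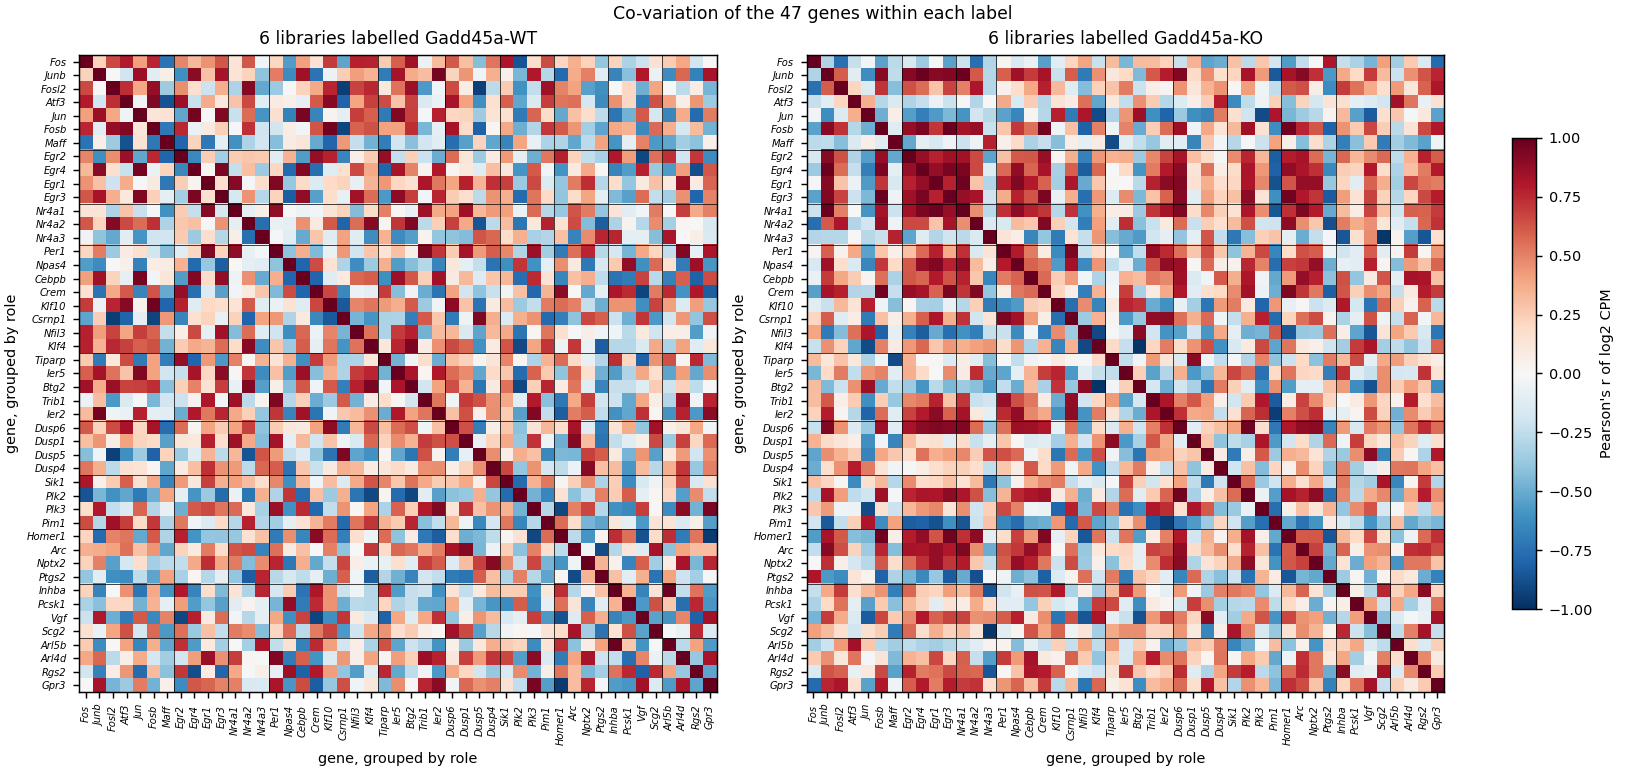
Pearson's r of log2 CPM between all pairs of the 47 genes, across 6 WT-labelled libraries (left) and 6 KO-labelled libraries (right), with genes grouped by role. The EGR block is red throughout on the right (mean r 0.85) and mixed on the left (mean r 0.07).

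Co-variation of *Fos* with the other best known members was examined within each label. Of 20 relations, 10 in each label, 0 had an adjusted p under 0.05 (lowest 0.569, exact permutation over pairings, Benjamini-Hochberg over 20) and 1 an unadjusted p under 0.05. That was *Btg2* across the 6 WT-labelled libraries, with Pearson's r = 0.84 (exact permutation p = 0.0361, adjusted p = 0.569) and Spearman's rho = 0.89 (exact permutation p = 0.0333, adjusted p = 0.667). Without libraries 2 and 6, farthest from the median of *Fos*, r was 0.74. Across the KO-labelled libraries it was 0.32, and -0.05 without the 2 farthest. For *Fosb* r was 0.76 across the WT-labelled libraries (exact permutation p = 0.0569, adjusted p = 0.569), and -0.39 without the 2 farthest. The sign of r was positive in 9 of 10 relations in WT-labelled and in 2 of 10 in KO-labelled libraries, and 17 of 20 kept their sign without the 2 libraries farthest from the median. *Egr1*, for example, had r = 0.45 and -0.01 with *Fos*, and *Arc* 0.35 and -0.25. With 6 libraries and no ties, Spearman's rho reaches at best an exact p of 0.00278, so that a lone rho could hardly pass after adjustment over 20. That limit is not the one for Pearson's r. With so few libraries, a p that missed does not show that *Fos* varied alone. *Fos* varied only 1.24-fold among the KO-labelled ones.

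Genes whose pattern was among the 10 most like that of *Fos*, by the mean of both within-label r over 16352 other genes, included *Gpx8*, *1600002K03Rik*, *Gt(ROSA)26Sor*, *Mgst1*, *Slc39a7*, *Tnfsf10*, *Rell1*, *Echdc3* and *1110002B05Rik*, with a mean r from 0.91 to 0.84. Members were left out of that search. The genes were picked as the most alike of 16352, so their values are descriptions. Ranked among all tested genes, the nearest members were *Nfil3* (mean r 0.59, rank 636), *Btg2* (0.58, rank 681) and *Sik1* (0.55, rank 874).

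The genes upstream of the members were compared in the same fit. Of 38 genes for CREB, SRF and MEF2 factors, their coactivators and the ERK, CaM kinase, calcineurin and PKA routes to them, 1 was lower at 1% FDR (2.63%, against 2.62% of all genes) and 0 were higher. At an unadjusted p under 0.05, 5 were lower (13.2%, against 9.35%) and 0 higher (against 4.34%). DESeq2 gave 3 lower and 0 higher, but it also called more of all genes lower at 1% FDR, 662 against 430 in edgeR. The one lower in edgeR was *Braf*, the kinase that activates MEK in the ERK cascade, with 201 ± 10.6 CPM in WT-labelled and 176 ± 2.81 CPM in KO-labelled libraries (SD, n = 6), a log2 fold change of -0.19 (SE 0.04, edgeR adjusted p = 0.00586). The median of the list was -0.05, with 33 of 38 below 0 (86.8%, against 48.2% of all genes). The members and the neuronal markers leaned the same way, and the part of tissue composition in this lean was not tested.

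A further 38 activity-regulated genes outside the members, such as *Bdnf*, *Gem* and *Nrn1*, held 37 tested genes. At an unadjusted p under 0.05, 3 were lower (8.11%, against 9.35% of all genes) and 2 higher (5.41%, against 4.34%). At 1% FDR 1 was lower in edgeR (2.7%, against 2.62% of all genes) and 0 higher, and 1 was lower in DESeq2, which called 662 of all genes lower. That gene was *Lonrf3*, which encodes a RING finger protein, with 7.9 ± 1.53 CPM against 3.67 ± 0.487 CPM (log2 fold change -1.10, SE 0.12, edgeR adjusted p = 0.0001). It was the largest difference among the genes of these 3 lists. The median of the further activity-regulated genes was also -0.05, with 26 of 37 below 0 (70.3%, against 48.2% of all genes). Of 16 genes driven by glucocorticoids, the stress hormones that also rise with a foot shock, 0 passed in edgeR or DESeq2 and 0 had an unadjusted p under 0.05. Their median was 0.03 and their range -0.13 to 0.28, with 5 of 16 below 0 (31.2%). Among them, 2 genes, *Errfi1* and *Sgk1*, are also on the list of further activity-regulated genes.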

How the data were processed

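Poly(A) RNA of 12 hippocampi was sequenced from stranded libraries. The authors aligned single reads with TopHat 1.4.1 to NCBIM37/mm9 and counted them by strand for each Ensembl gene with HTSeq 0.5.4p3, and the deposited values are raw counts per gene in each library. Reads in no gene or ambiguous were left out of library sizes. Groups and replicate numbers are those of the sample labels. The age of 6 to 7 months is that of the labels, and the study's methods give another range.

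Genes were named from GENCODE vM1, of the same build (37205 of 37991 IDs). Counts were filtered, TMM-scaled and compared with edgeR 4.0.16 (R 4.3.3; quasi-likelihood test, no covariate, Benjamini-Hochberg over 16399 genes, 1% FDR). CPM are counts scaled to the TMM-corrected library total, log2 CPM used a prior count of 2, and two-sided exact permutation tests used Python 3.11.15 (scipy 1.17.1). Alternatives were DESeq2 1.42.0, RLE factors, other filters, 5% FDR, the replicate block, an offset for exon length (spline, 5 degrees of freedom) and leaving out each library. The fit without KO-labelled libraries 2 and 3 was chosen after seeing the data. On data simulated like this comparison, with 200 of 16399 genes changed, the edgeR test was tested before use.

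The members and all gene lists were chosen with earlier results of these data known. Values in every library are given for 11 well-known members, for those with an adjusted p under 0.05 with or without the block, with the 5 lowest p, the 3 lowest and highest log2 fold changes, or the 5 largest SDs. Pairs of libraries of 1 label differed by more than counting error (chi-square per degree of freedom 9.03 to 40.8 over 30 pairs). Each library is taken as 1 mouse. One gene of a list named by rule is not reported here. Promoters were matched in the RefSeq windows of GRCm38.p6, and a gene counted when any of its windows held the motif.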

Additional observations from a re-analysis of the deposited data

Results flagged for a closer look

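In 94 groups of 6 libraries, 47 genes in each label, 9 groups had a library far from the other 5 by Dixon's test, where chance gives about 1 in 20, or 4.7. In WT-labelled library 1, *Jun* was high at 102 CPM (57.6 to 73.8 in the others), *Junb* was high at 28.4 CPM (12.9 to 18.6) and *Tiparp* was low at 16.2 CPM (19.4 to 21). In WT-labelled library 6, *Fosb* was high at 7.45 CPM (5.73 to 6.16), *Dusp6* at 61 CPM (56.1 to 57.7), *Klf10* at 27.8 CPM (25.1 to 25.6) and *Atf3* at 1.36 CPM (0.792 to 0.938). Among the KO-labelled libraries, *Ier5* was low in library 3 at 22.8 CPM (28.5 to 30) and *Nfil3* was low in library 4 at 6.27 CPM (7.5 to 7.83). Of the 9, 7 were in WT-labelled and 2 in KO-labelled libraries.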

How the results depend on the processing

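Of 380 log2 fold changes of the 19 members given in full, under 20 alternatives, 354 kept their direction and their side of 1% FDR. All 40 correlations with *Fos* did so under other scaling and another prior count. The count of members lower at 1% FDR was 0 to 1 with a library left out, 0 with the offset for exon length and the replicate block together (*Arl5b*, -0.24, adjusted p = 0.0137) and 0 without KO-labelled libraries 2 and 3. For all genes, 726 were lower and 20 higher at 5% FDR, 662 and 19 with DESeq2, 272 and 9 with the length offset, 10 higher with the offset and the block, 199 lower without KO-labelled libraries 2 and 3, and 239 to 467 lower with a library left out. Members whose labels do not overlap numbered 0 to 1 with a library left out (*Arl5b*, *Homer1* or *Klf4*). The share of all genes is given only for all 12 libraries, so these counts have no background. The best known members with an exact p under 0.05 also numbered 0 to 1 with a library left out (*Fos*, *Egr2* or *Egr4*). The mean pairwise r of the members was then 0.02 to 0.12 in WT-labelled and 0.08 to 0.17 in KO-labelled libraries, and 0.08 without KO-labelled libraries 2 and 3.

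Estimates near 0 turned sign. Without KO-labelled libraries 2 and 3, *Fosb* was 0.12, *Arc* 0.03 and *Vgf* 0.01. With 1 library left out, *Fosb* ranged from -0.11 to 0.06, *Dusp1* from -0.07 to 0.01, *Vgf* from -0.17 to 0.10 and *Btg2* from -0.03 to 0.09. *Btg2* was -0.01 with the length offset and -0.02 with the offset and the block. The cause was not tested.

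No source says that equal replicate numbers share a litter or batch, and they were taken as pairs only if the deviations of every same-numbered pair of libraries correlated over 0.1. Over all tested genes 5 of 6 pairs did so (-0.08 to 0.26, mean 0.14, against -0.03 for other numbers), and 4 of 12 libraries were best matched by their own number. Over the members it was also 5 of 6 (0.03 to 0.40, mean 0.27, against -0.05) and 6 of 12 libraries. They were therefore not used as pairs. With the replicate block, 509 genes were lower and 5 higher, *Btg2* was -0.01, *Arl5b* had an adjusted p of 0.00718, *Nr4a1* had 0.0152, and *Braf* had 0.0131 and no longer passed. In a sign-flip permutation of same-numbered libraries 1 of the 11 best known members had an unadjusted p under 0.05, *Nr4a1* (0.0312, lower in 6 of 6). That is the smallest two-sided p that 6 pairs allow in this permutation. Counting error weighs most on *Maff*, with 15 reads at its lowest.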
